A study of Rattus norvegicus with 24 samples.

Results

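Metallothioneins and zinc transporters set how much zinc a cell holds. They were followed here as 10 genes, which are the metallothioneins Mt2A and Mt3, the transcription factor Mtf1, the ZnT carriers Slc30a1, Slc30a3 and Slc30a10, and the ZIP carriers Slc39a1, Slc39a8, Slc39a10 and Slc39a14. They were picked by gene name among the reference genes of the deposited tables, which number 32883, and all 10 were found, each listed once in every table. RNA of the frontal cortex came from 24 adult male Sprague-Dawley rats of a study of inhaled tungsten particles. It was collected 24 hours after exposure. The Control group (0 mg/m3 of tungsten particles), the Low group (5 mg/m3) and the High group (80 mg/m3) held 8 rats each, with 1 library per rat, numbered 49 to 56, 57 to 64 and 65 to 72. The labels name no genotype, allele or further treatment, and the age is given only as adult. The extraction note speaks of cell lines, but all 8 neuron, all 8 astrocyte, all 6 oligodendrocyte and all 6 microglia markers examined had a mean scaled coverage of at least 1.

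Metallothioneins are small cysteine-rich proteins that bind zinc and copper. When free zinc rises in a cell, MTF1 binds metal response elements in the promoters of inducible metallothionein genes and of Slc30a1 and raises their transcription. ZnT proteins (Slc30a) move zinc out of the cytosol, into vesicles or out of the cell, and ZIP proteins (Slc39a) move it into the cytosol. In the cortex, Mt3 is the brain metallothionein, and Slc30a3 (ZnT3) loads zinc into the synaptic vesicles of glutamatergic neurons.

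The promoters of Mt2A and Slc30a1 are shown because these genes are textbook targets of MTF1, and that of Mt3 because it is the other metallothionein of the set, known for responding little to metals. They are the 250 bases before the annotated start in RefSeq (build GRCr8), read 5′ to 3′ on the strand of the gene. Capitals mark matches to the core of the metal response element, searched as TGCACNC or TGCGCNC on both strands, with overlapping matches joined in 1 run. Mt2A lies at chr19:10838709-10838958 on the minus strand, Mt3 at chr19:10856081-10856330 on the minus strand and Slc30a1 at chr13:106021769-106022018 on the plus strand.
Mt2A: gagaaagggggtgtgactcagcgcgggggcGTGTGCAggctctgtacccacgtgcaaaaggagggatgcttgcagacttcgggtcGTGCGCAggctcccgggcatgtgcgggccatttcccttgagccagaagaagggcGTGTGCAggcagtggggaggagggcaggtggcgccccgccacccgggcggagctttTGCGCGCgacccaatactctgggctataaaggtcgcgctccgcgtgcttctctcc
Mt3: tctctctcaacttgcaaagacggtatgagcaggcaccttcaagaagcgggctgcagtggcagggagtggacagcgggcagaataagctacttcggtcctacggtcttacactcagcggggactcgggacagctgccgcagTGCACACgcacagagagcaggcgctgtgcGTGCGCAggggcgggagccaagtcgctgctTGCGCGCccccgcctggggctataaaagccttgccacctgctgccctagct
Slc30a1: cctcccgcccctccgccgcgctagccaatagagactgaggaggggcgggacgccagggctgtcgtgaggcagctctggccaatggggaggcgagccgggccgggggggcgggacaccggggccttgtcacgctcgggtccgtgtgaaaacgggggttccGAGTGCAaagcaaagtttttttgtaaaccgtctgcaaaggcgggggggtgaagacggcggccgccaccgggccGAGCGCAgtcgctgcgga
Mt2A held 4 matches, Mt3 held 3 and Slc30a1 held 2. Of the 33469 promoters in the table, 20.6% held at least 1 match, 4.9% at least 2, 1.17% at least 3 and 0.266% at least 4. The promoter of Mtf1 itself held 2 matches and that of Slc39a1 held 1. Slc30a3, Slc39a8 and Slc39a10 held 0 in this window, and the table had no entry for Slc30a10 or Slc39a14. A match is a run of letters and was not tested as a binding site.

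The unit throughout is scaled coverage. The tables give the coverage of each gene, its mean read depth per base, and this was divided by the sum over all reference genes of the library and multiplied by 1000000. Because it is a depth per base, levels of different genes can be set side by side. Differences between groups were tested with limma on log2(scaled coverage + 1) over 15644 genes, those whose mean reached 1, with all 10 members among them, and a Benjamini-Hochberg adjusted p under 0.05 was called a change. In bulk tissue, fewer cells of a type and less RNA per cell cannot be told apart. The tables hold no read counts, so counting error is unknown. The coverage summed over the reference genes, in units of 1000000, lay between 1.67 and 2.82 for Control libraries, between 1.64 and 3.07 for Low and between 1.77 and 2.67 for High. The bases by which StringTie scaled FPKM, taken from coverage over FPKM, lay between 5.05 and 7.86 gigabases for Control, between 3.34 and 6.42 for Low and between 4.95 and 7.65 for High. Whether Low libraries were sequenced less deeply cannot be read from them, because the kind of table also differs. Beside the reference genes, Control and High tables carry 46334 to 159573 further entries assembled by StringTie, and Low tables carry 0, so exposure to the low dose and the kind of table cannot be told apart. Libraries 49 and 57 stood apart by high Mt3, and libraries 66 and 67 by low Slc30a3, and the results that rest on them are given with and without them.

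Hardly any of the 10 genes passed the test between exposure groups. In Low against Control 0 of 10 were called, where 6.11% of all genes tested were called, 1.23% as higher and 4.88% as lower. In High against Control 0 of 10 were called, beside 0% of all genes (0 genes by limma and 0 by exact rank-sum tests, with 330 and 887 genes at an unadjusted p under 0.05, which is 2.11% and 5.67%). In Low against High 1 of 10 was called, Slc39a10 as higher, beside 11.7% of all genes, 5.3% as higher and 6.39% as lower, so the share of members was close to the background. These splits depended on the scaling. With the library sum taken without mitochondrial genes, 838 genes were called higher and 895 lower in Low against Control, in place of 192 and 764, and 34 and 594 without scaling. In Low against High, 829 and 999 became 1535 and 1161, and 72 and 1061, under the same choices, and 373 and 1283 with median-of-ratios scaling. By exact rank-sum tests 0 of 10 were called in each comparison, beside 2.38%, 0% and 7.33% of all genes. The ranges of the compared groups overlapped for all 10 members, while they did not for 1.53%, 0.00639% and 2.26% of all genes. At an unadjusted p under 0.05 the counts were 0, 0 and 2 of 10, beside 18.4%, 2.11% and 29.1% of all genes. The log2 difference was above 0 for 8 of 10 members in Low against Control (66.5% of all genes), for 2 of 10 in High against Control (36% of all genes) and for 9 of 10 in Low against High (69.9% of all genes). The members' median log2 difference was 0.11, -0.07 and 0.15 in these comparisons, beside 0.06, -0.03 and 0.09 over all genes tested. Without libraries 49 and 57, 390 of the 15644 genes tested and 0 of 10 members were called in High against Control. In Low against High 4507 of the 15644 genes and 3 of 10 members were called. The comparisons share samples and are not independent.

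**Figure D1:**
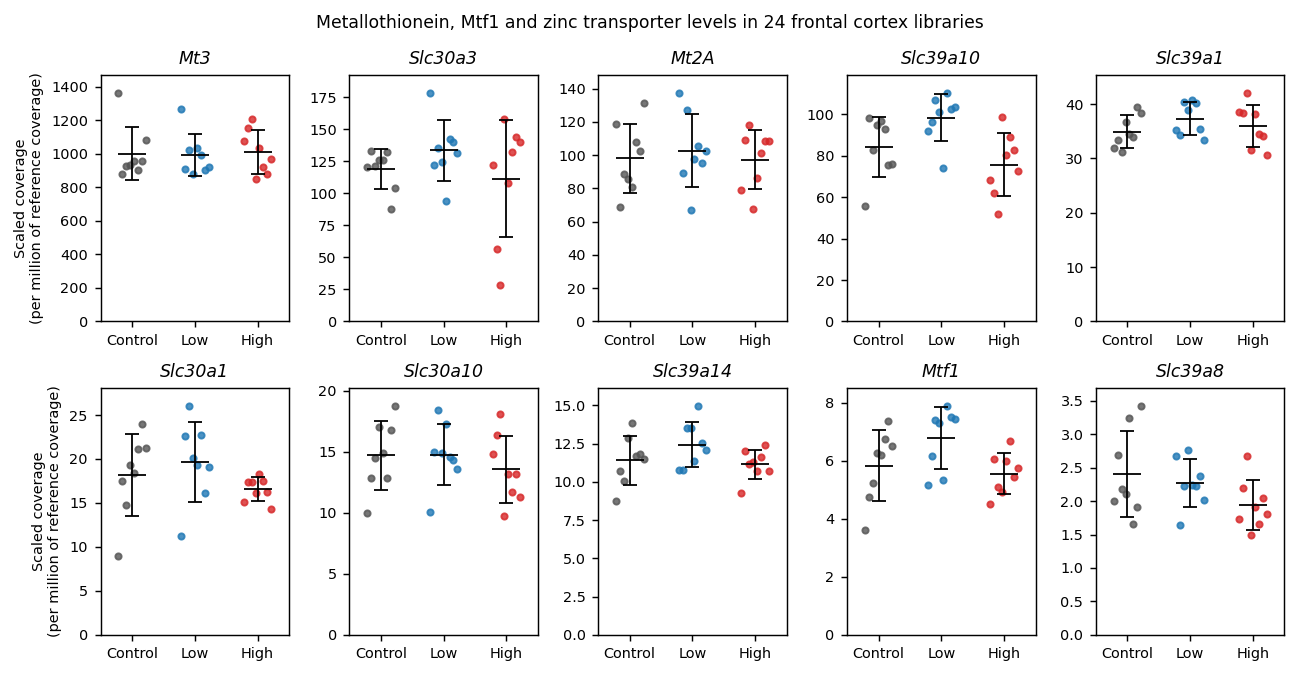
Scaled coverage (share of reference coverage times 1000000, linear axes from 0) of each gene in the 24 libraries, in order of the Control mean, with 1 point per library, a bar at the group mean and error bars of 1 SD (n = 8 per group). The groups overlap for every gene, and Slc30a3 drops to 56.7 and 28.2 in High libraries 66 and 67.

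The levels spanned a wide range, and the group means stood in the same order in Control, Low and High. In Control, Mt3 was the highest at 1001 ± 159 (SD, n = 8), the 73rd highest of all reference genes, and lay 8.42 times above Slc30a3 at 119 ± 15.5. Mt2A at 98.0 ± 20.9 and Slc39a10 at 84.2 ± 14.6 followed. Slc30a3 exceeded Mt2A in 19 of 24 libraries and Mt2A exceeded Slc39a10 in 15 of 24, with 3 of 8 in Low, where the median of Slc39a10 was the higher (102 against 100.04). The Control ranges of these neighbours overlapped. Next came Slc39a1 at 34.9 ± 2.99, Slc30a1 at 18.2 ± 4.63, Slc30a10 at 14.7 ± 2.81 and Slc39a14 at 11.4 ± 1.59. Slc30a1 exceeded Slc30a10 in 22 of 24 libraries and Slc30a10 exceeded Slc39a14 in 21 of 24, again with overlapping ranges. Mtf1 at 5.84 ± 1.22 and Slc39a8 at 2.40 ± 0.65 were the lowest. The other steps of this order held in 24 of 24 libraries.

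Mt3, on chromosome 19 of the tables (minus strand, 11324698 to 11326139), encodes the brain metallothionein, known as growth inhibitory factor. It ranged from 881 to 1365 in Control (median 945), from 878 to 1267 in Low (median 958) and from 848 to 1207 in High (median 1000). The 3 groups overlapped almost completely. Low minus Control was -0.01 on the log2 scale (95% interval -0.20 to 0.18, adjusted p = 0.966 by limma) and High minus Control was 0.02 (-0.17 to 0.21, adjusted p = 0.999), so a change beyond 0.21 in either direction lies outside both intervals. Mt3 was highest in Control library 49 and Low library 57. Without these 2 libraries Low minus Control was 0.00.

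Mt2A, 1 of the inducible metallothioneins found in most cells, lies on the same strand of chromosome 19 (11307967 to 11308740). It ranged from 68.6 to 131 in Control (median 95.6), from 67.1 to 137 in Low (median 100.04) and from 67.5 to 118 in High (median 105). Every group spanned nearly the same range. The difference of Low minus Control was 0.07 (95% interval -0.23 to 0.36, adjusted p = 0.840 by limma), High minus Control was -0.00 (-0.30 to 0.29, adjusted p = 0.999) and Low minus High was 0.07 (-0.22 to 0.36, adjusted p = 0.765). For Low against Control the interval reaches up to 1.28-fold on the log2(value + 1) scale, so rises up to that size lie inside it.

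The wider metallothionein list held 6 names, of which 5 were in the tables and 3 were tested. In Low against Control, High against Control and Low against High 0 of them were called, beside 6.11%, 0% and 11.7% of all genes. Beside the members it is Mt1 that was tested, at 24.9 ± 10.2 in Control, 26.2 ± 5.67 in Low and 28.8 ± 7.56 in High. The tables place this entry on chromosome 17 (78793336 to 78793724), whereas RefSeq places Mt1 on chromosome 19 beside Mt2A, where the tables list AC128848.1 (11302125 to 11302938) at 1.53 to 2.06 on average per group. Metallothionein genes are near copies of each other, so the values of Mt1, Mt2A and AC128848.1 are uncertain to the extent that reads were divided between them. Mt1m and Mt4 stayed below a mean of 1.

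Mtf1, on chromosome 5 (plus strand, 142332607 to 142376370), is the zinc sensor that switches inducible metallothionein genes on. It ranged from 3.62 to 7.36 in Control (median 6.24), from 5.18 to 7.89 in Low (median 7.36) and from 4.50 to 6.67 in High (median 5.59). Low libraries tended to lie high, and 6 of 8 exceeded the High median, but the groups overlapped. On the log2 scale Low minus Control was 0.20 (95% interval -0.03 to 0.43, adjusted p = 0.359 by limma) and High minus Control was -0.05 (-0.28 to 0.18, adjusted p = 0.999). Low minus High was 0.24 (0.01 to 0.47), with an unadjusted p of 0.0403 and an adjusted p of 0.153 by limma. Without libraries 49 and 57 that difference was 0.29 and passed the threshold (adjusted p = 0.0235 by limma). Library 57 held the lowest Low value of Mtf1, so leaving it out raises the difference. In that setting 3342 of 15644 genes were called higher in Low against High and 1165 lower.

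**Figure D2:**
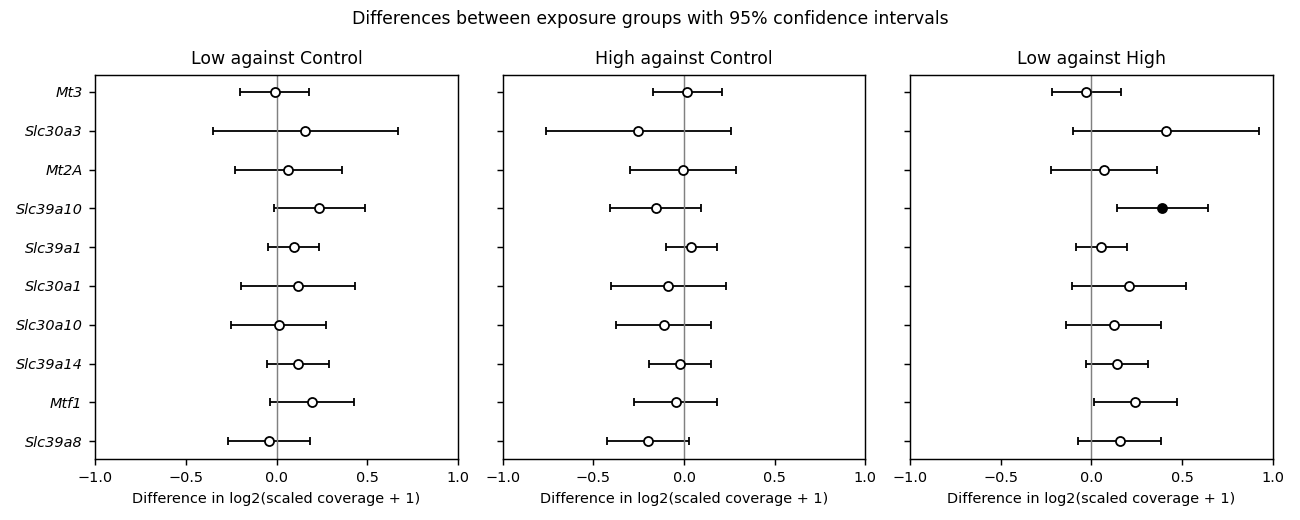
Difference in log2(scaled coverage + 1) between groups for the 10 genes, with points for the limma estimate, bars for the 95% confidence interval and a filled point where the adjusted p is under 0.05. Only Slc39a10 in Low against High is filled, at 0.39, and the widest intervals are those of Slc30a3.

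Among the zinc exporters, Slc30a3 was the most variable. It encodes ZnT3 of synaptic vesicles (chromosome 6, plus strand, 26642783 to 26650105). It ranged from 87.7 to 133 in Control (median 124), from 93.8 to 179 in Low (median 133) and from 28.2 to 158 in High (median 128). The High group was split, with library 66 at 56.7 and library 67 at 28.2 against 108 to 158 in the other 6. The estimate of Low minus Control was 0.16 (95% interval -0.35 to 0.67, adjusted p = 0.768 by limma), High minus Control was -0.25 (-0.76 to 0.26, adjusted p = 0.999) and Low minus High was 0.41 (-0.10 to 0.92, adjusted p = 0.275). Without libraries 66 and 67 the sign turned, to 0.18 for High minus Control and -0.02 for Low minus High. Its residual SD over libraries was 0.53 on the log2 scale, percentile 91.2 of the genes tested, and its highest value was 6.34 times its lowest.

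Libraries 66 and 67 also differed from the other High libraries in the metallothioneins and in cell type markers. Mt3 was at 1152 and 1207 against 848 to 1079, and Mt2A at 108.8 and 118 against 67.5 to 108.6, and all 3 metallothioneins tested lay above the other 6 libraries in both. The summed microglia markers were 234 and 244 against 146 to 197, the astrocyte markers 3227 and 3341 against 2473 to 3145, the meningeal markers 122 and 127 against 35.1 to 121, and the choroid plexus markers 15.1 and 31.6 against 4.33 to 12.4. Taken singly, 4 of 6 microglia and 4 of 8 astrocyte markers lay above all other 6 in each library. So did 3 of 5 meningeal markers in library 66 and 2 in library 67, and 1 of 2 choroid plexus markers tested in each. Of 6 oligodendrocyte markers, 5 did in library 66 and 0 in library 67. Neuron markers mostly lay low. Of 8 neuron markers, 5 lay below all other 6 High libraries in both. The vesicular glutamate transporter Slc17a7, a marker of excitatory neurons, was at 503 in library 66 and 302 in library 67 against 688 to 843. Camk2a was at 496 and 400 against 560 to 866, and Rbfox3 was at 92.8 and 77.2 against 105 to 152. Gad1 and Gad2, which make GABA in inhibitory neurons, went the other way, with Gad2 at 169 and 187 against 72.4 to 137. The summed neuron markers ranged from 2103 to 3271 in Control, from 2462 to 3282 in Low and from 1850 to 3178 in High, and none of the 8 was at 0. The summed striatal markers were 703 and 826 in these libraries against 175 to 1160 in the other 6, and ranged from 331 to 732 in Control and from 243 to 555 in Low. The part of cell composition in the Slc30a3 and metallothionein values was not tested.

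**Figure D3:**
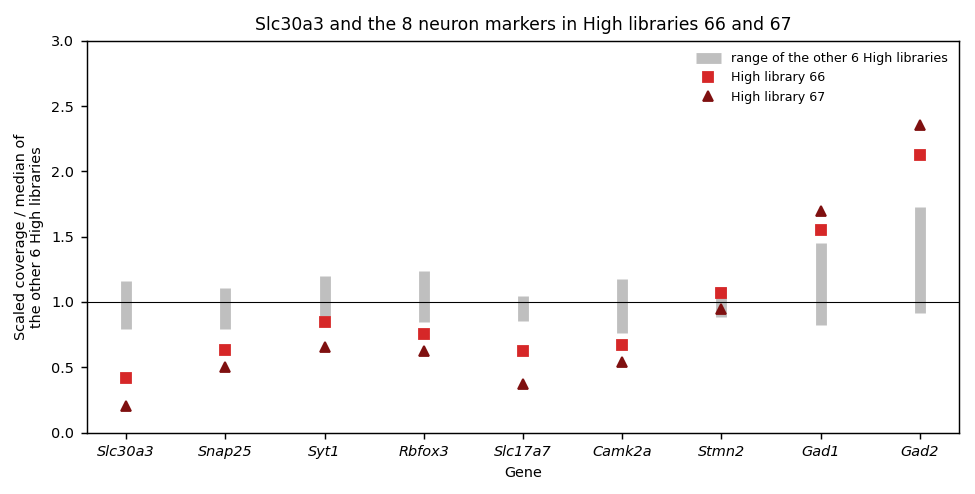
Scaled coverage of Slc30a3 and the 8 neuron markers in High libraries 66 (squares) and 67 (triangles), each divided by the median of the other 6 High libraries, whose range is the grey bar (linear axis from 0). Slc30a3 and 5 of the 8 markers lie below the grey bar in both libraries, and Gad1 and Gad2 lie above it.

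Slc30a1 encodes ZnT1, the exporter of the plasma membrane (chromosome 13, plus strand, 110677810 to 110681683). It ranged from 8.99 to 23.997 in Control (median 18.9), from 11.2 to 26.0 in Low (median 19.7) and from 14.3 to 18.3 in High (median 16.8). The lowest Control and Low values were those of libraries 49 and 57. Low minus Control was 0.12 (95% interval -0.20 to 0.43, adjusted p = 0.712 by limma), High minus Control was -0.09 (-0.40 to 0.23, adjusted p = 0.999) and Low minus High was 0.21 (-0.11 to 0.52, adjusted p = 0.378). Without libraries 49 and 57 Low minus High was 0.31 and passed the threshold (adjusted p = 0.0164 by limma). Leaving out library 57, the lowest of Low, raises this difference. In that setting 3342 of 15644 genes were called higher in Low against High and 1165 lower. The coverage of Slc30a1 was also listed unevenly. The ratio of its coverage to its FPKM, relative to the median gene of the library, was 0.589 in library 49 and under 0.95 in 6 of 8 Control and 6 of 8 High libraries, but 1 in all 8 Low libraries. On FPKM divided by its own sum, Low minus Control was -0.09, so no direction can be given for this gene.

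Slc30a10, a carrier best known for exporting manganese (chromosome 13, plus strand, 103396314 to 103410363), ranged from 9.96 to 18.7 in Control (median 14.7), from 10.1 to 18.4 in Low (median 14.7) and from 9.70 to 18.1 in High (median 13.2). The ranges nearly coincided. For Low minus Control the estimate was 0.01 (95% interval -0.25 to 0.27, adjusted p = 0.974 by limma), High minus Control was -0.11 (-0.37 to 0.15, adjusted p = 0.999) and Low minus High was 0.12 (-0.14 to 0.38, adjusted p = 0.542). Without libraries 49, 57, 66 and 67 Low minus High was 0.31 (adjusted p = 0.0270 by limma). These libraries were set apart by their Mt3 and Slc30a3 values. Library 57 held the lowest Low value of Slc30a10, and libraries 66 and 67 the highest High values. Leaving them out therefore raises this difference. In that setting 3055 of 15644 genes were called higher in Low against High and 937 lower.

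All 10 members of the ZnT family were in the tables and 8 were tested. In Low against Control 0 of 8 were called, beside 6.11% of all genes tested. The log2 difference was above 0 for 8 of 8, beside 66.5% of all genes. In High against Control 0 of 8 were called, beside 0% of all genes. In Low against High, where 11.7% of all genes were called, 1 of 8 was, Slc30a4. It encodes ZnT4, which loads zinc into vesicles, and is no member of the 10. It ranged from 21.5 to 37.3 in Control (median 33.0), from 27.8 to 38.6 in Low (median 37.0) and from 20.8 to 34.3 in High (median 27.5). All 8 Low libraries exceeded the High median. Low minus High was 0.35 (95% interval 0.12 to 0.57, adjusted p = 0.0407 by limma), and Low minus Control was 0.14 (adjusted p = 0.503). The call was lost when any of 9 single libraries was left out, with adjusted p up to 0.0917 without High library 67, and without libraries 66 and 67 the difference was 0.25 (adjusted p = 0.156 by limma). It was also lost with no filter on low values (adjusted p = 0.0543) and with median-of-ratios scaling (0.25, adjusted p = 0.0924 by limma), and the adjusted p of the exact rank-sum test was 0.0716.

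Slc39a10 was the only member past the threshold. It encodes ZIP10, an importer of the plasma membrane (chromosome 9, plus strand, 60021534 to 60070552). It ranged from 55.8 to 98.4 in Control (median 87.9), from 74.3 to 110 in Low (median 102) and from 51.9 to 98.7 in High (median 76.5). Of the Low libraries, 7 of 8 exceeded the High median and 5 exceeded every Control library, but the ranges overlapped. Low was higher than High by 0.39 on the log2 scale (95% interval 0.14 to 0.64, adjusted p = 0.0366 by limma), which is 1.31-fold. Against Control, Low differed by 0.23 (-0.02 to 0.49, adjusted p = 0.303) and High minus Control was -0.16 (-0.41 to 0.09, adjusted p = 0.999). The call in Low against High was lost when any of 10 single libraries was left out, with adjusted p up to 0.0832 without High library 67. Without libraries 66 and 67 the difference was 0.26 (adjusted p = 0.151 by limma). It was also lost without scaling (0.18, adjusted p = 0.793 by limma), with median-of-ratios scaling (0.30, adjusted p = 0.0982), with libraries 56 to 62 as a covariate (0.48, adjusted p = 0.207) and with no filter on low values (adjusted p = 0.0502), and in the exact rank-sum test the adjusted p was 0.0514. That covariate marks Control library 56 and Low libraries 57 to 62, so it overlaps largely with the Low group. The ratio of Slc39a10 coverage to its FPKM, relative to the median gene of the library, was under 0.95 in all libraries. It lay between 0.879 and 0.892 in Control, 0.865 and 0.878 in Low, and 0.886 and 0.892 in High. On FPKM divided by its own sum, Slc39a10 averaged 89.8 in Control, 105 in Low and 80.8 in High.

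Slc39a1 encodes ZIP1, a housekeeping importer (chromosome 2, plus strand, 189609800 to 189615366), and was the steadiest member. It ranged from 31.2 to 39.5 in Control (median 34.2), from 33.3 to 40.7 in Low (median 37.1) and from 30.7 to 42.1 in High (median 36.4). Its residual SD was 0.13 on the log2 scale, percentile 11.1 of the genes tested. Its Low minus Control was 0.09 (95% interval -0.05 to 0.23, adjusted p = 0.482 by limma) and High minus Control was 0.04 (-0.10 to 0.18, adjusted p = 0.999).

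Slc39a14 and Slc39a8 encode ZIP14 and ZIP8, which carry manganese and iron as well as zinc. Slc39a14 (chromosome 15, minus strand, 51982982 to 52029816) ranged from 8.75 to 13.9 in Control (median 11.6), from 10.8 to 14.9 in Low (median 12.3) and from 9.29 to 12.4 in High (median 11.2). Low minus Control was 0.12 (95% interval -0.05 to 0.29, adjusted p = 0.459 by limma) and High minus Control was -0.02 (-0.19 to 0.15, adjusted p = 0.999). Slc39a8 (chromosome 2, plus strand, 241029693 to 241092582) ranged from 1.66 to 3.42 in Control (median 2.14), from 1.64 to 2.77 in Low (median 2.24) and from 1.49 to 2.67 in High (median 1.86). Low minus Control was -0.04 (-0.27 to 0.18, adjusted p = 0.864) and High minus Control was -0.20 (-0.43 to 0.03, adjusted p = 0.999). For a gene this low, the added 1 understates fold changes. For both genes the 3 ranges overlapped.

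All 14 members of the ZIP family were in the tables and 12 were tested. In Low against Control 0 of 12 were called, beside 6.11% of all genes, with 6 log2 differences above 0 and 6 below (66.5% of all genes above 0). In High against Control 0 of 12 were called, and in Low against High 1 of 12, Slc39a10, beside 0% and 11.7% of all genes. Of the copper handling genes 9 of 11 were tested, with 0 called in each comparison, beside the same shares. Of 6 carriers of manganese and other divalent metals, 1 was called lower in Low against Control and in Low against High. Among all genes 4.88% and 6.39% were called lower there. In High against Control 0 of the 6 were called. The carrier called was Slc40a1, which encodes ferroportin, the iron exporter. It is listed at 0 in all 8 Low tables, against 2.67 ± 0.53 (SD, n = 8) in Control and 1.92 ± 0.58 in High. No fold is given against a group listed at 0, and whether the zeros are measured absence or a failed estimate cannot be told apart.

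The result for the members also turned on the column used. On the deposited FPKM as it stands, Slc39a8 fell under the minimum mean and was not tested, and all 9 other members were called higher in Low against Control and in Low against High, but so were most genes, with 11948 and 11909 of 13816 called higher and a median log2 difference of 0.53 and 0.52 over all of them. Mt3 was 0.50 higher in Low than in Control on that column and so lay under the median gene. At the members' own places, the assembled loci of Control and High tables repeated the value of the reference gene for some members but not for others. The locus on the same strand came within 1% of it in 16 of 16 libraries for Mt3, in 14 of 16 for Slc30a1, Slc39a1 and Slc39a10, and in 12 of 16 for Mt2A. It did so in 10 of 16 for Slc39a8, 7 for Slc30a10, 6 for Mtf1, 5 for Slc39a14 and 1 for Slc30a3. Assembled loci on the opposite strand lay at Slc30a10 (5.56 to 26.6 of unscaled coverage) and Slc39a10 (27.9 to 61.2) in all 16. Reference genes on the opposite strand overlap Slc30a1 (AABR07022168.1) and Slc39a10 (AABR07067736.1).

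Pairs of members were also compared from rat to rat. Over 45 pairs of members, Pearson's r was computed on log2(scaled coverage + 1) after the group means were subtracted, with 100000 permutations within groups, two-sided. After Benjamini-Hochberg adjustment over the 45 pairs, 12 passed by Pearson's r, 9 of them positive, 10 by Spearman's rho and 10 by both. The weakest of the 12 had an r of 0.51 in size, and 26.7% of the member pairs reached it, beside 17.5% of all pairs of genes tested (15.9% positive and 1.52% negative), so covariation of this size is common among all genes. All values of a library share its scaling and its base of RNA, so the points are not free of common error.

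**Figure D4:**
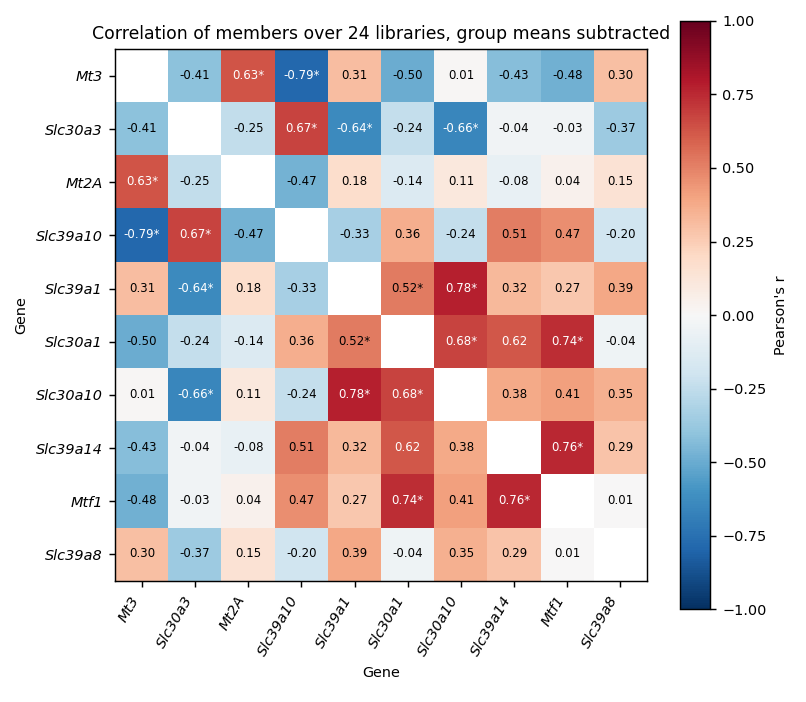
Pearson's r (colour and number) for each pair of the 10 genes over 24 libraries, on log2(scaled coverage + 1) with group means subtracted. A star marks the 10 pairs past the threshold by both Pearson's r and Spearman's rho, of which Mt3 with Slc39a10 is the most negative at -0.79 and Slc30a10 with Slc39a1 the most positive at 0.78. Pairs with Slc30a1 rest on its unevenly listed coverage.

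Mt2A and Mt3 rose and fell together, with r = 0.63 (adjusted permutation p = 0.00825) and rho = 0.59 (adjusted permutation p = 0.0260). Without the 2 libraries farthest from the median of the first gene, r was 0.56, and without libraries 49, 57, 66 and 67 it was 0.47. Mt3 ran against the importer Slc39a10, with r = -0.79 (adjusted permutation p = 0.00214) and rho = -0.71 (adjusted permutation p = 0.00675). Without the 2 farthest libraries r was -0.78, and without those 4 it was -0.62. Within groups it was -0.92 in Control, -0.34 in Low and -0.93 in High.

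Slc30a3 ran against Slc30a10, with r = -0.66 (adjusted permutation p = 0.00195) and rho = -0.69 (adjusted permutation p = 0.00675). The values without the 2 farthest libraries and without libraries 49, 57, 66 and 67 were -0.63 and -0.60. It also ran against Slc39a1 (r = -0.64, rho = -0.52) and with Slc39a10 (r = 0.67, rho = 0.62). Slc30a10 and Slc39a1 went together, with r = 0.78 and rho = 0.78 (adjusted permutation p = 0.0018 and 0.00315), and with r = 0.82 without the 2 farthest libraries. Mtf1 went with Slc30a1 (r = 0.74, rho = 0.68) and with Slc39a14 (r = 0.76, rho = 0.67). The first of these depended more on single libraries, with 0.46 without the 2 farthest, against 0.62 for the second. Without libraries 49, 57, 66 and 67 it was 0.47, and within groups 0.94 in Control, 0.54 in Low and 0.48 in High. All pairs with Slc30a1 rest on its unevenly listed coverage, lowest against FPKM in library 49, and were not computed on FPKM. Mtf1 and the metallothioneins did not pass the threshold, at r = -0.48 with Mt3 (adjusted permutation p = 0.0785) and 0.04 with Mt2A (adjusted permutation p = 0.921). The value with Mt3 was 0.00 without the 2 farthest libraries.

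**Figure D5:**
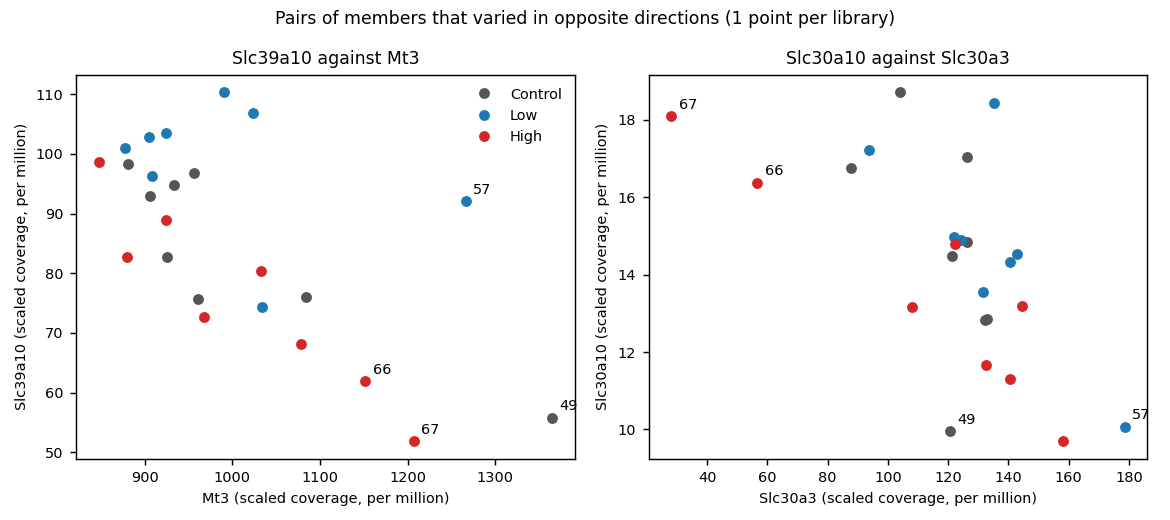
Scaled coverage of Slc39a10 against Mt3 (left) and of Slc30a10 against Slc30a3 (right), 1 point per library, coloured by group, with libraries 49, 57, 66 and 67 numbered (axes do not start at 0). Slc39a10 falls as Mt3 rises, with library 57 above the other points, and the lowest Slc30a3 values, 56.7 and 28.2, go with Slc30a10 at 16.4 and 18.1.

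The genes whose pattern over the 24 libraries was most like that of each member were named by the same r, as a description. For Mt2A they were Mt1 (r = 0.81), Rbm3, a cold-inducible RNA-binding protein (0.79), and Mrps25 (0.77). For Mt3 they were Rps13 (0.94) and Rplp2 (0.93), both proteins of the cytosolic ribosome, and LOC100911575 (0.93). For Slc30a3 they were the Nogo receptor Rtn4r (0.98), the presynaptic SNARE protein Stx1a (0.97) and Nrn1 (0.97). For Slc30a1, whose coverage was listed unevenly, they were Gda (0.97), Robo1 (0.97) and Pnma8b (0.95). For Slc30a10 they were Trafd1 (0.92), Carmil3 (0.91) and Smurf2 (0.91). Mtf1 was nearest to LOC100909856 (0.97), Sik2 (0.92) and Ptpn23 (0.92). Slc39a10 was nearest to the kinase Aak1 (0.97), R3hdm2 (0.96) and Cds1 (0.96), and Slc39a1 to glutamate dehydrogenase Glud1 (0.92), Anxa3 (0.92) and Gnai2 (0.91). Slc39a14 was nearest to the splicing factor Sf1 (0.92), Smg5 (0.90) and Rbms2 (0.88). Slc39a8 was nearest to the protease Capn1 (0.81), Tcirg1 (0.78) and Gm2a (0.77).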

How the data were processed

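RNA-Seq libraries (stranded TruSeq kit, per the labels) of 24 frontal cortex samples were analysed. The submitters' processing notes name FastQC, Trimmomatic, TopHat2, StringTie and the build mRatBN7.2, without versions. Positions are those of the tables, whose build was not settled here. The authors deposited 1 StringTie gene table per library, with coverage as mean depth per base, FPKM and a TPM column. That column is the deposited score of Control and High tables, since assembled loci and reference genes are listed side by side there and it is not TPM in the usual sense.

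Coverage of reference genes was summed per gene, divided by the library sum, times 1000000. Genes with a mean of at least 1 were tested with limma 3.58.1 (trend, robust, R 4.3.3) on log2(value + 1), with the 3 groups fitted together, two-sided, and p adjusted after Benjamini-Hochberg with a threshold of 0.05. On simulated data for Low against Control, 180 of 200 changed genes among 15644 were recovered, with 8 others called. Each changed gene was given a log2 difference of 1 up or down, with noise independent between genes. Recovery of smaller differences, such as those of the members, was not simulated. Correlations used permutations in Python 3.11.15 with numpy 2.4.6, pandas 2.3.3 and scipy 1.17.1, and figures matplotlib 3.10.9.

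The members, the lists and the tests were chosen with earlier results of these data known. Named genes are all members, the 3 genes most like each, and any gene of the fixed zinc, copper and divalent metal lists with an adjusted p under 0.05. AC128848.1 and the marker genes were named after their values were seen. The alternatives were another pseudocount, filter, scaling, column, test, covariate and set of libraries. The covariate marked Control library 56 and Low libraries 57 to 62, and no High library. It overlaps largely with the Low group, and what changes under it cannot be told apart from that overlap.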

Additional observations from a re-analysis of the deposited data

Results flagged for a closer look

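Mt3 was at 1365 in Control library 49 against 881 to 1084 in the other 7 Control libraries, and at 1267 in Low library 57 against 878 to 1034 in the other 7 Low libraries. In both, the gap to the nearest library exceeded the limit of Dixon's test for 8 samples. These were 2 of 30 sets of 1 gene in 1 group, where chance gives 1.5. In library 49 the glucocorticoid targets summed to 133 against 181 to 275 in the other 7 Control libraries and 7 of 8 of them lay below all others, and the choroid plexus markers summed to 72.1 against 4.63 to 28.8. Library 49 also lay below the other Control libraries in the summed astrocyte markers (2570 against 3014 to 3933), neuron markers (2103 against 2643 to 3271), endothelial markers (52.0 against 67.9 to 99.4), meningeal markers (70.9 against 85.0 to 167), ZnT genes (273 against 304 to 362) and ZIP genes (252 against 275 to 325), with 6 of 8 ZnT genes below all others. In library 57 the summed choroid plexus markers were 5.99 against 5.03 to 15.1, and 5 of 6 striatal markers lay below the other 7 Low libraries. Library 57 also lay below them in astrocyte markers (2979 against 3001 to 3685) and glucocorticoid targets (185 against 189 to 267). So it did, narrowly, in endothelial (74.9 against 75.2 to 92.9) and meningeal markers (39.4 against 39.7 to 120). Its neuron markers, ZnT genes and ZIP genes lay within their range. In libraries 49 and 57 alike, divalent metal carriers lay below the others and copper handling genes above. The part of these values in the Mt3 levels was not tested.

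Low differed from High by 0.39 for Slc39a10 (adjusted p = 0.0366 by limma), by 0.35 for Slc30a4 (adjusted p = 0.0407) and by -1.52 for Slc40a1 (adjusted p = 2.90e-10), on the log2(value + 1) scale. Slc40a1 is listed at 0 in all 8 Low tables, so its difference rests on the added 1 and is no bound. The Low tables also differ from the High tables in listing 0 assembled loci, and exposure and kind of table cannot be told apart.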

How the results depend on the processing

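No paired analysis was possible because the 3 groups share no replicate numbers. Adding assembled loci to the reference genes was not run, since at some members those loci repeated the value of the reference gene. At others they did not, so reads listed only under assembled loci are not counted. Of the members' 30 values, most kept direction and side of the threshold (267 of 324 under alternatives listed in advance, 676 of 720 with 1 library left out, and 101 of 120 under alternatives chosen after seeing the data). The cause of the changes below was not tested.

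Genes called in Low against Control were 956, and 556 with a minimum mean of 5, 628 without scaling, 1733 without mitochondrial genes in the sum, 12393 on FPKM, 3952 on TPM, 566 with only both groups, 361 with libraries 56 to 62 as a covariate, 372 by rank-sum test and 1847 on FPKM divided by its sum. In Low against High they were 1828, and 1192, 1133, 12410, 3927, 354 and 1147 with the minimum mean of 5, no scaling, FPKM, TPM, the covariate and the rank-sum test. Without libraries 49 and 57 they were 4507, and 390 in High against Control (7 higher, 383 lower), and without libraries 49, 57, 66 and 67 they were 3992 and 268.

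With 1 library left out, the genes called higher in Low against Control numbered 78 (without Low 62) to 324 (without Low 61), and in Low against High 396 (without Low 59 or 62) to 1600 (without Control 49). Members called numbered 9 of 9 tested in both comparisons with Low on FPKM. In Low against High they were 0 with no filter, no scaling, median-of-ratios scaling, the covariate, the rank-sum test or without libraries 66 and 67, 3 without libraries 49 and 57, 4 without those 4, and 0 to 1 with 1 library left out.

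Among the other named genes, Slc6a20 turned to 0.26 on FPKM for Low minus Control, where the median over all genes was 0.53. The Low minus High call of Slc30a4 was also lost without scaling (0.14) and with the covariate (0.39, adjusted p = 0.278 by limma).

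Signs turned in values that were not called in the analysis as reported. For Low minus Control, the covariate gave -0.066 for Mt2A, -0.011 for Slc30a1, -0.11 for Slc30a10 and -0.0024 for Slc39a1. Mt3 was 0.016 without mitochondrial genes, 0.50 on FPKM, 0.088 on TPM and 0.0040 without libraries 49 and 57, with or without 66 and 67. Slc39a8 was 0.026 on TPM, Slc30a1 -0.093 on FPKM divided by its sum, and Slc30a10 -0.018 on the same, -0.022 without scaling and -0.044 with median-of-ratios scaling.

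For High minus Control, no scaling gave 0.18 for Mt2A, 0.12 for Mtf1, 0.093 for Slc30a1, 0.063 for Slc30a10, 0.025 for Slc39a10 and 0.15 for Slc39a14, while the median over all genes was 0.14. Mt2A was 0.021 with the covariate, 0.019 without mitochondrial genes, 0.043 on FPKM, 0.044 on TPM, 0.032 with median-of-ratios scaling and 0.038 without libraries 49 and 57. Slc39a14 was 0.00084 without mitochondrial genes, 0.020 on FPKM, 0.022 on TPM and 0.013 with median-of-ratios scaling. Leaving out libraries 66 and 67 gave -0.060 for Mt3, 0.18 for Slc30a3 and -0.014 for Slc39a1, and leaving out all 4 gave 0.18 for Slc30a3 and -0.032 for Slc39a1.

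For Low minus High, no scaling gave -0.15 for Mt2A, -0.0023 for Slc30a1, -0.085 for Slc30a10, -0.16 for Slc39a1 and -0.063 for Slc39a14, with a median over all genes of -0.11. The covariate gave -0.087 for Mt2A, -0.027 for Slc30a10 and -0.061 for Slc39a1, and median-of-ratios scaling -0.025 for Mt2A and -0.040 for Slc39a1. Mt3 was 0.44 on FPKM, 0.021 on TPM and 0.050 without libraries 66 and 67. Slc30a3 was -0.018 without libraries 66 and 67 and -0.080 without all 4.

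With 1 library left out, Low minus Control ranged from -0.0034 to 0.15 for Mt2A, -0.062 to 0.056 for Mt3, -0.0083 to 0.22 for Slc30a1, -0.060 to 0.081 for Slc30a10 and -0.090 to 0.014 for Slc39a8. High minus Control ranged from -0.074 to 0.066 for Mt2A, -0.020 to 0.083 for Mt3, -0.35 to 0.0020 for Slc30a3 and -0.070 to 0.017 for Slc39a14. Low minus High ranged from -0.00092 to 0.15 for Mt2A and -0.079 to 0.010 for Mt3.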

Other observations

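Beyond the members, few markers of other cells passed the test. Over all genes 6.11%, 0% and 11.7% were called in Low against Control, High against Control and Low against High. Of 5 meningeal markers, all 5 log2 differences in Low against Control were below 0 (-1.26 to -0.23), where 66.5% of all genes lay above 0. So were those of all 6 striatal markers (-0.68 to -0.34), all 4 blood markers and both choroid plexus markers tested. All 6 oligodendrocyte, all 6 microglia and all 3 endothelial markers tested lay above 0, and the astrocyte, neuron and glucocorticoid lists held both signs. Of the 5 meningeal markers, 1 was called, beside 4.88% of all genes called lower. It was the amino acid transporter Slc6a20, at a mean of 2.99 in Low and 5.65 in Control (log2 difference -0.77, adjusted p = 0.00367 by limma). The call was lost on FPKM, where the difference turned to 0.26, on TPM (-0.13, adjusted p = 0.616 by limma) and on FPKM divided by its sum (-0.26, adjusted p = 0.506), the last chosen after seeing the data. The median over all genes tested was 0.53 on FPKM, 0.17 on TPM and 0.05 on FPKM divided by its sum, so Slc6a20 lay below it on each. The summed level of the meningeal markers ranged from 70.9 to 167 in Control, from 39.4 to 120 in Low and from 35.1 to 127 in High. The 6 oligodendrocyte markers had a median log2 difference of 0.23 in Low against High with 0 called, beside a median of 0.09 over all genes. They summed to 4154 to 7951 in Low against 2466 to 6258 in High. Microglia, astrocyte, neuron, striatum, blood, choroid plexus and glucocorticoid lists had 0 genes called in all 3 comparisons, and of 3 endothelial markers tested 1 was called higher in Low against High. It was the organic anion transporter Slco1a4, at a mean of 46.0 in Low and 36.5 in High (log2 difference 0.33, adjusted p = 0.0235 by limma), and the call was lost when any of 3 single libraries was left out, without scaling (0.12, adjusted p = 0.882 by limma), with median-of-ratios scaling (0.24, adjusted p = 0.0989), with libraries 56 to 62 as a covariate (0.15, adjusted p = 0.599) and in the exact rank-sum test (adjusted p = 0.0716).

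The zinc and metallothionein genes outside the members, 14 tested, had 0, 0 and 1 called in the 3 comparisons, beside 6.11%, 0% and 11.7% of all genes. Their median log2 difference was 0.04, -0.04 and 0.05, beside 0.06, -0.03 and 0.09 over all genes.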
